A study of Mus musculus with 11 samples.

Results

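The families described here are those through which cells use glutathione and thioredoxin, the main thiol reductants: the glutathione S-transferases, the microsomal glutathione S-transferases, the glutathione peroxidases, the peroxiredoxins and the genes named after thioredoxin. Members were all genes whose symbol in the platform annotation begins with Gsta, Gstk, Gstm, Gsto, Gstp, Gstt, Gstz, Mgst or Txn, or with Gpx or Prdx and a digit. This gave 54 genes on 80 probes, of 16593 genes with a symbol on the array, and 42 of the 54 were detected, against 9302 detected genes in all. A gene counted as detected when at least 1 of its probes had a detection p, the p-value of the scanner software for a signal above the negative control beads, under 0.05 in at least 5 of 10 mice.

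RNA came from whole adrenals of male mice aged 12 to 16 weeks on a C57B/6J backcross. The mINDY-KO mice (n = 5) were homozygous for the SLC13A5tm1.2Helf allele, which lacks part of Slc13a5, the gene of the plasma membrane citrate carrier mINDY. Carriers of the SLC13A5tm1.1Helf allele had been mated with an Hprt1-Cre line to make it, and homozygotes came from heterozygous parents, so that the deletion was not limited to the adrenal. The WT mice (n = 5) were littermates of the same age, and the labels give no treatment. Each mouse had 1 Illumina bead array, and WT replicate 1 had a second array as a technical repeat, averaged with the first. Median signals per array were 122 to 238 in mINDY-KO and 150 to 202 in WT adrenals, with the lowest on mINDY-KO replicates 3 and 4, and 13260 to 13538 probes were detected per array. The probe of Slc13a5 itself was detected in 0 of 10 mice (signals of 106 to 222 in mINDY-KO and 134.5 to 166 in WT adrenals) and therefore does not check the genotype. Levels are given below as Z scores, the log10 signal minus the array mean over the array SD. These were multiplied by 1.57, the mean array SD of log2 signal. Levels and fold changes thus read as log2 units after each array was scaled to the same SD. Differences between arrays depend in part on that scaling, and a level of one probe cannot be set against that of another.

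Glutathione S-transferases join glutathione to reactive compounds, and some of them also reduce organic peroxides. Glutathione peroxidases, some of which carry selenocysteine, and peroxiredoxins remove hydrogen peroxide and lipid peroxides, the peroxiredoxins with electrons from thioredoxin. Thioredoxin reductase and glutathione reductase return both carriers to their reduced form with NADPH. In the adrenal cortex, the mitochondrial cytochromes that make steroids leak electrons to oxygen.

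All 3 microsomal glutathione S-transferases had higher means in mINDY-KO than in WT adrenals, and their promoters are shown for that reason. RefSeq (GRCm38.p6) gives windows of 300 bases, 250 before to 50 after an annotated transcript start, for 50 of the 54 members and 39 of the 42 detected ones. Each is written 5′ to 3′ on the strand of the gene, and capitals mark the core of the antioxidant response element, the site of the transcription factor NFE2L2, searched as TGACNNNGC and, for the other strand, GCNNNGTCA.
Mgst1 (chr6:138140277-138140576, plus strand): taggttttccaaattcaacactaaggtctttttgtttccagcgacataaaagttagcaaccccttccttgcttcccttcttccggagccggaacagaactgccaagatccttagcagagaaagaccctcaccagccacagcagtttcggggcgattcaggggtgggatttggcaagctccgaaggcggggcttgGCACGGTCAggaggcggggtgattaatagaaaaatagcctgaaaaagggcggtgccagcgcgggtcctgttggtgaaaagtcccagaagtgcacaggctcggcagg
Mgst2 (chr3:51660929-51661228, plus strand): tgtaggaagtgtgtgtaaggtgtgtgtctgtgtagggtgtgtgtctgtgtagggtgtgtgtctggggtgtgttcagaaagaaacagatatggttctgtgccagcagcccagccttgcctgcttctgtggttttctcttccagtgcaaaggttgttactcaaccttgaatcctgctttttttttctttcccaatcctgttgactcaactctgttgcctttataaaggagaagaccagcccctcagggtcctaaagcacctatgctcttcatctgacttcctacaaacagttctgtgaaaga
Mgst3 (chr1:167393792-167394091, minus strand): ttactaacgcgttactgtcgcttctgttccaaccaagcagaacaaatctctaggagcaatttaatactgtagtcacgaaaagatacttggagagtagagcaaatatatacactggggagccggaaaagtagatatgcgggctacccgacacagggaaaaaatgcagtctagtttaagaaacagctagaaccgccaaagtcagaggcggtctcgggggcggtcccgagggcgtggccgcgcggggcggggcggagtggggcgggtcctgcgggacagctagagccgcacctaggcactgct
The Mgst1 window held 1 match, GCACGGTCA, which begins 56 bases before the start and lies on the minus strand of the gene, and the window of a further annotated Mgst1 start held none. The windows of Mgst2 and Mgst3 held no match to these letters. The core stood in 8 of 67 windows of members (11.9%) and in 8 of 56 windows of detected members (14.3%), against 4071 of all 32851 windows (12.4%). Besides Mgst1, the matches were in Gsta3, Gstm5, Prdx1, Txndc11, Txndc2, Txndc5 and Txnrd1.

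None of the 42 detected members passed an adjusted p of 0.05 (limma, Benjamini-Hochberg over 13341 probes), a call made for 2 of all probes tested (0.015%). Means were higher in mINDY-KO adrenals for 26 members (61.9%) and lower for 16, against 43.6% of all detected genes with a higher mean, and the median log2 fold change was 0.037 over the members and -0.019 over all detected genes. At an unadjusted p under 0.05 in the same limma fit, 9 members were higher (21.4%, against 4.33% of all detected genes) and 1 was lower (2.38%, against 7.01%). The 9 were Mgst1, Mgst2, Mgst3, Gpx1, Txn1, Txndc2, Gsta3, Gstp1 and Gsto1, and the 1 was Gpx3. Every mINDY-KO mouse lay above every WT mouse for 1 member, Mgst1 (2.38%, against 0.753% of all detected genes), and below for 0 (against 1.38%). By the thresholds of the supplement on Z scores, 1 of 42 members passed (2.38%), again Mgst1, against 80 of all 9302 detected genes (0.86%), and after Benjamini-Hochberg adjustment at 0.05 the same values gave 0 members and 0 of all probes.

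**Figure D1:**
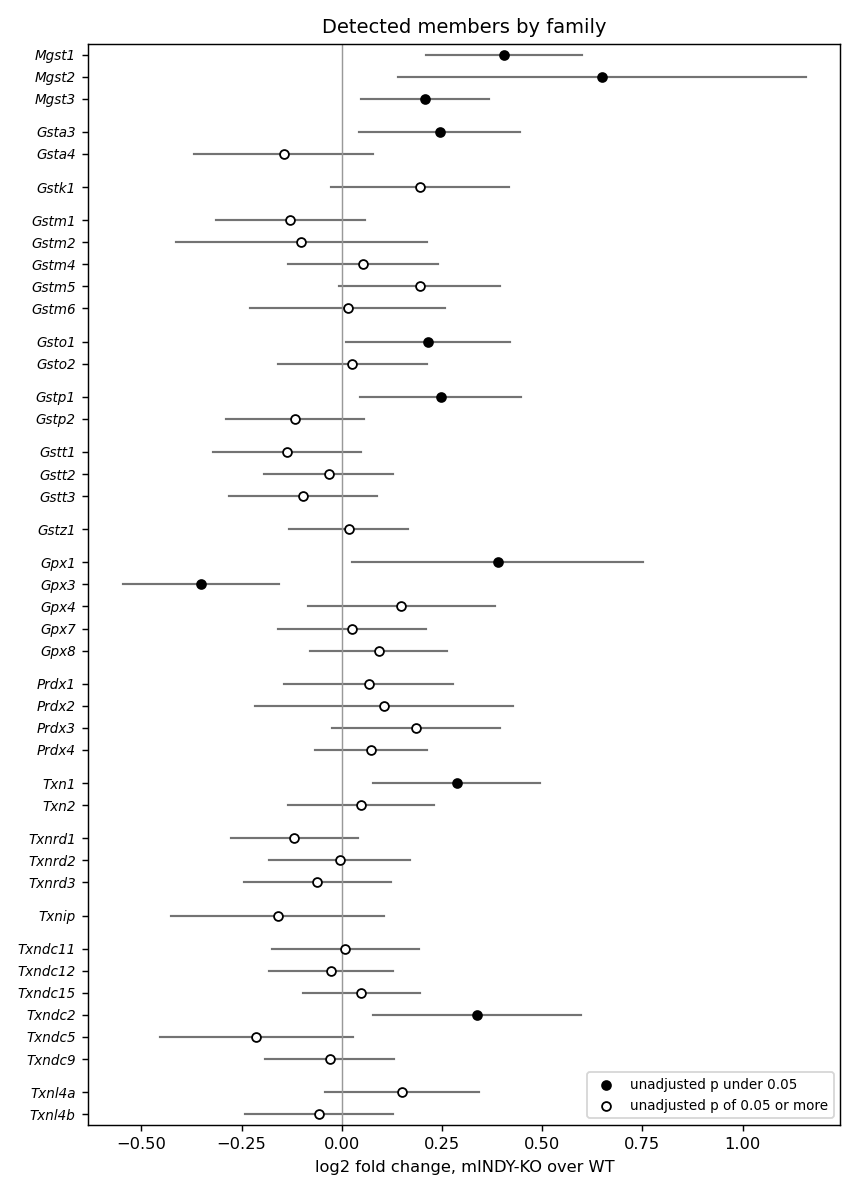
Log2 fold change of each of the 42 detected members, mINDY-KO over WT adrenals (5 mice each), by family from top to bottom, with 95% confidence intervals from limma as lines. Filled points had an unadjusted p under 0.05: 9 lie to the right of 0, among them all 3 Mgst genes, and Gpx3 (-0.35) lies to the left.

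In the whole gland, more of a transcript per cell cannot be told apart from more cells of the type that makes it. The cortical markers were present in all mice, with 10 of 12 listed genes detected, 6 higher and 4 lower in mean (mean level over the list 3.27 to 3.61 in mINDY-KO and 3.37 to 3.54 in WT adrenals). Of the chromaffin cell markers 9 of 12 were detected, 1 with a higher and 8 with a lower mean (3.10 to 3.62 in mINDY-KO and 3.26 to 3.80 in WT adrenals). Macrophage markers had a higher mean for 7 of 8 detected genes (1.42 to 1.88 in mINDY-KO and 1.18 to 1.73 in WT adrenals). All 6 detected adipocyte markers of 10 listed had a higher mean, with mINDY-KO replicate 5 at 0.92, the next mINDY-KO mouse at 0.38 and WT mice at 0.017 to 0.26. Fabp4 was detected in 0 mice, Retn in 1 and Cidec in 3. Of the kidney markers 1 of 7 on the array was detected and of the liver markers 4 of 8, with Alb and Umod in 0 mice. The part of these markers in the values below was not tested.

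Mgst1, a membrane-bound enzyme of the endoplasmic reticulum and outer mitochondrial membrane that conjugates glutathione and reduces lipid peroxides, had the smallest limma p of the members and was the only one separate between the groups on its brightest probe. Its levels were 5.05, 4.94, 5.17, 5.09 and 5.23 in mINDY-KO replicates 1 to 5 and 4.82, 4.52, 4.48, 4.88 and 4.76 in WT replicates 1 to 5. The lowest mINDY-KO mouse thus lay above the highest WT mouse. The means were 5.10 ± 0.11 in mINDY-KO and 4.69 ± 0.18 in WT adrenals (SD, n = 5 each), and the log2 fold change was 0.41 (SE 0.091, 1.32-fold, adjusted p = 0.157, limma). The second probe of the gene gave 4.19 to 4.56 in mINDY-KO and 3.63 to 4.17 in WT mice, again without overlap, with a log2 fold change of 0.41 (SE 0.10, adjusted p = 0.171). The 2 arrays of WT replicate 1 differed by 0.25 for the first probe, more than the gap between the lowest mINDY-KO and the highest WT mouse. Its first array was the higher one and, taken alone, lay just above mINDY-KO replicate 2. The lack of overlap on this probe thus rests on averaging the 2 arrays.

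Mgst3, a close relative with glutathione peroxidase activity, was measured by 2 probes. The brighter one gave 3.92, 3.85, 4.16, 4.05 and 3.98 in mINDY-KO and 3.90, 3.78, 3.69, 3.78 and 3.77 in WT mice, so that 4 of 5 mINDY-KO mice lay above all WT mice and replicate 2 lay below WT replicate 1. Its log2 fold change was 0.21 (SE 0.075, adjusted p = 0.333). The other probe gave 3.13, 3.21, 3.56, 3.38 and 3.25 in mINDY-KO and 2.88, 3.0, 2.88, 3.06 and 2.97 in WT mice, with no overlap and a log2 fold change of 0.35 (SE 0.084, adjusted p = 0.167). In both, mINDY-KO replicate 3 was the highest mouse.

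Mgst2, which can also make leukotriene C from its precursor, had the largest mean difference of all members and the widest spread. Its levels were 2.93, 2.42, 3.26, 3.36 and 3.05 in mINDY-KO and 2.90, 2.33, 1.37, 2.45 and 2.71 in WT mice. WT replicate 3 was far below its group, and mINDY-KO replicate 2 lay within the WT range. The log2 fold change was 0.65 (SE 0.24, 95% interval 0.14 to 1.16, adjusted p = 0.346), and without WT replicate 3 it was 0.41. Without mINDY-KO replicates 3 and 4, the log2 fold changes were 0.38 for Mgst1, 0.44 for Mgst2 and 0.13 for Mgst3, of which only Mgst1 kept an unadjusted p under 0.05.

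**Figure D2:**
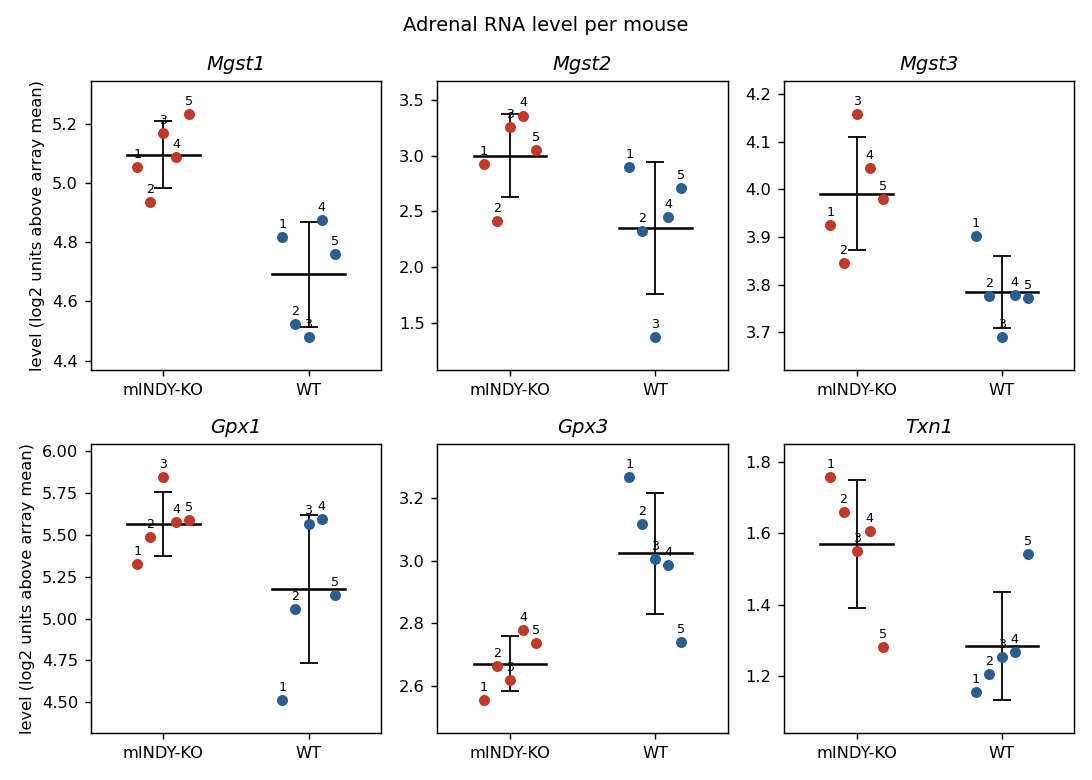
Level of 6 members in each mouse, in log2 units above the array mean after each array was scaled to the same SD (y axis). Points are mINDY-KO (left, red) and WT (right, blue) adrenals with their replicate numbers, and lines are the group mean ± SD (n = 5). Each panel has its own scale. The groups are separate for Mgst1, overlap by 1 mouse or more in the other 5 panels, and are ordered the other way for Gpx3.

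The soluble glutathione S-transferases showed no common direction: of 16 detected genes 9 were higher and 7 lower in mean in mINDY-KO adrenals, with a median log2 fold change of 0.016 and a range of -0.15 to 0.25. Gstp1, the pi class enzyme, gave 3.61, 3.59, 4.10, 3.81 and 3.77 in mINDY-KO and 3.43, 3.52, 3.54, 3.66 and 3.50 in WT mice. Here 3 mINDY-KO mice lay above all WT mice and none lay below the WT mean, with a log2 fold change of 0.25 (SE 0.094, adjusted p = 0.369), 0.13 without mINDY-KO replicates 3 and 4. Its 2 other probes gave 0.22 (SE 0.13) and -0.07 (SE 0.069).

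Gsta3, an alpha class enzyme whose human counterpart isomerises steroid precursors, gave 1.44, 1.65, 1.58, 1.63 and 1.55 in mINDY-KO and 1.54, 1.25, 1.01, 1.38 and 1.45 in WT mice. The log2 fold change was 0.24 (SE 0.094, adjusted p = 0.375), with mINDY-KO replicate 1 inside the WT range. Gsto1, an omega class enzyme that reduces dehydroascorbate and mixed disulfides, gave 3.18, 3.22, 3.52, 3.22 and 3.18 in mINDY-KO and 2.82, 3.06, 3.22, 3.22 and 2.95 in WT mice. Replicate 3 stood apart and the other 4 mINDY-KO mice lay beside the 2 highest WT mice, for a log2 fold change of 0.21 (SE 0.095, adjusted p = 0.433). Gsta4, which clears the lipid peroxidation product hydroxynonenal, went the other way in mean (-0.15, SE 0.10, adjusted p = 0.655), with mINDY-KO mice at 1.30 to 1.81 and WT mice at 1.49 to 1.86.

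Of the mu class, the largest, 5 of 6 genes were detected. Gstm5 gave 2.78, 3.08, 3.28, 2.90 and 2.89 in mINDY-KO and 2.80, 2.75, 2.70, 2.74 and 2.96 in WT mice, a log2 fold change of 0.19 (SE 0.094, adjusted p = 0.472). Gstm2 gave 5.44, 5.75, 6.05, 6.47 and 5.72 in mINDY-KO and 6.12, 5.93, 6.06, 5.89 and 5.94 in WT mice. The mINDY-KO mice thus spread on both sides of a narrow WT group (SD 0.39 in mINDY-KO and 0.096 in WT adrenals), with replicates 3 and 4 at the top, and the log2 fold change of -0.10 (SE 0.15, adjusted p = 0.851) became -0.35 without these 2 mice. Gstm1 also had a narrow WT group, with mINDY-KO mice at 4.17 to 4.71 and WT mice at 4.52 to 4.59 (-0.13, SE 0.087, adjusted p = 0.635). Here 4 mINDY-KO mice lay below all WT mice, and replicate 4 lay above them. The genes of this class lie close in sequence, and probe sequences were not used here, so that signal shared between Gstm1, Gstm2 and their neighbours was not examined.

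Gstk1, the kappa class enzyme of mitochondria and peroxisomes, gave 3.66, 3.64, 4.17, 4.12 and 3.97 in mINDY-KO and 3.66, 3.70, 3.65, 3.83 and 3.75 in WT mice. Replicates 3, 4 and 5 of mINDY-KO were above all WT mice and replicates 1 and 2 were not, and the log2 fold change of 0.19 (SE 0.10, adjusted p = 0.528) became 0.041 without replicates 3 and 4. All 3 detected theta class genes had lower means (-0.14 for Gstt1, -0.033 for Gstt2 and -0.097 for Gstt3), each with overlapping groups. Gstt3, the brightest of them, spanned 2.14 to 2.55 in mINDY-KO and 2.32 to 2.60 in WT mice (SE 0.086, adjusted p = 0.725). Gstz1, which isomerises maleylacetoacetate in tyrosine breakdown, spanned 2.56 to 2.77 in mINDY-KO and 2.58 to 2.72 in WT mice, a log2 fold change of 0.017 (SE 0.070, 95% interval -0.13 to 0.17).

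Gpx3, the secreted peroxidase of plasma, was the only member lower in mINDY-KO adrenals at an unadjusted p under 0.05. Its levels were 2.56, 2.67, 2.62, 2.78 and 2.74 in mINDY-KO and 3.27, 3.12, 3.0, 2.99 and 2.74 in WT mice. All WT mice but replicate 5 lay above every mINDY-KO mouse, and WT replicate 5 lay between the 2 highest mINDY-KO mice. The means were 2.67 ± 0.089 in mINDY-KO and 3.02 ± 0.19 in WT adrenals (SD, n = 5 each), and the log2 fold change was -0.35 (SE 0.092, 0.784-fold, adjusted p = 0.191, limma). Without mINDY-KO replicates 3 and 4 it was -0.37.

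Gpx1, the main cytosolic peroxidase, had the opposite sign. It gave 5.32, 5.49, 5.84, 5.58 and 5.59 in mINDY-KO and 4.52, 5.06, 5.57, 5.59 and 5.14 in WT mice. Every mINDY-KO mouse lay above the WT mean, but WT replicate 3 lay above 2 of them and WT replicate 4 above 4. The log2 fold change of 0.39 (SE 0.17, adjusted p = 0.423) was 0.22 without WT replicate 1. Gpx4, which reduces phospholipid peroxides in membranes, spanned 3.30 to 3.99 in mINDY-KO and 3.31 to 3.65 in WT mice (0.15, SE 0.11, adjusted p = 0.662). Gpx7 (0.025, SE 0.086) and Gpx8 (0.092, SE 0.080), both of the endoplasmic reticulum, overlapped between the groups, although 1 of the 3 Gpx8 probes gave 0.21 at an unadjusted p under 0.05.

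All 4 peroxiredoxins with a probe under their symbol were detected. They had higher means in mINDY-KO adrenals, by 0.067 to 0.18 on the log2 scale, and none had an unadjusted p under 0.05. Prdx3, the mitochondrial peroxiredoxin that steroid-making cells use against hydrogen peroxide, had 4.95, 4.90, 5.17, 4.95 and 5.22 in mINDY-KO and 4.75, 4.72, 5.07, 5.04 and 4.69 in WT mice (0.18, SE 0.098, adjusted p = 0.525). Prdx1, a cytosolic enzyme, had 5.78, 5.58, 5.89, 6.21 and 5.92 in mINDY-KO and 5.85, 5.82, 5.73, 5.88 and 5.77 in WT mice (0.067, SE 0.098, adjusted p = 0.852). Prdx2, the other main cytosolic form, stood at 6.04 and 6.02 in mINDY-KO replicates 3 and 4, at 5.29 to 5.32 in the other 3 mINDY-KO mice and at 5.32 to 5.62 in WT mice. Its log2 fold change was 0.11 (SE 0.15, adjusted p = 0.845) and turned to -0.19 without those 2 mice, where Prdx1 turned as well (-0.049). Prdx4, of the endoplasmic reticulum, spanned 3.49 to 3.60 in mINDY-KO and 3.40 to 3.59 in WT mice (0.073, SE 0.065). Prdx5 and Prdx6 had no probe under these symbols.

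The 14 detected genes named after thioredoxin had 6 higher and 8 lower means, with a median log2 fold change of -0.017. Txn1, the cytosolic thioredoxin, gave 1.76, 1.66, 1.55, 1.61 and 1.28 in mINDY-KO and 1.15, 1.21, 1.25, 1.27 and 1.54 in WT mice. The groups were apart but for replicate 5 of each, mINDY-KO replicate 5 lying within the WT range and WT replicate 5 below 4 of the mINDY-KO mice. The log2 fold change was 0.29 (SE 0.097, adjusted p = 0.310). Its 2 arrays of WT replicate 1 differed by 0.30, as much as the groups, and 2 further Txn1 probes were detected in 0 mice. Txn2, the mitochondrial thioredoxin, spanned 2.73 to 2.99 in mINDY-KO and 2.57 to 2.98 in WT mice (0.048, SE 0.085, 95% interval -0.13 to 0.23).

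The thioredoxin reductases and the thioredoxin inhibitor Txnip were lower in mean without passing the test, Txnrd2 by its brighter probe only. Txnrd1, the cytosolic reductase, spanned -0.91 to -0.68 in mINDY-KO and -0.85 to -0.58 in WT mice (-0.12, SE 0.074, adjusted p = 0.602). Its probe was detected in 8 of 10 mice and lay near the detection limit, at signals of 120 to 225 in mINDY-KO and 177.5 to 214 in WT mice. Txnrd2, the mitochondrial one, gave -0.0055 (SE 0.082) on its brighter probe and 0.14 (SE 0.071) on the other, and Txnrd3 gave -0.061 (SE 0.086). Txnip spanned 4.23 to 4.83 in mINDY-KO and 4.55 to 5.00 in WT mice (-0.16, SE 0.12, adjusted p = 0.680).

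Among the proteins with a thioredoxin fold, Txndc2, known from sperm, had low levels of -0.039, -0.062, -0.20, -0.12 and 0.53 in mINDY-KO and -0.45, -0.46, -0.22, -0.16 and -0.28 in WT mice. Its log2 fold change of 0.34 (SE 0.12, adjusted p = 0.335) was 0.21 without mINDY-KO replicate 5. Among the mINDY-KO mice, replicate 5 also had the highest mean level of the adipocyte markers (0.92, the next mouse 0.38). It was highest by little for the adrenal cortex markers (3.61, the next mouse 3.60). For the chromaffin markers it stood at 3.62 (the next mouse 3.46), with WT mice at up to 3.80. The part of these markers in the Txndc2 value was not tested. Txndc5, a disulfide isomerase of the endoplasmic reticulum, had 3.30, 3.34, 3.51, 3.69 and 3.65 in mINDY-KO and 4.01, 3.82, 3.75, 3.40 and 3.58 in WT mice (-0.21, SE 0.11, adjusted p = 0.519). All 5 mINDY-KO mice were below the WT mean and 2 were below all WT mice. Txndc15 (0.049, SE 0.069), Txndc11 (0.0088, SE 0.086), Txndc12 (-0.028, SE 0.072) and Txndc9 (-0.030, SE 0.075) were within 0.05 of 0. The spliceosome protein Txnl4a spanned 3.42 to 3.68 in mINDY-KO and 3.19 to 3.65 in WT mice (0.15, SE 0.089, adjusted p = 0.580), and Txnl4b gave -0.057 (SE 0.086).

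The 12 members not detected were Gpx2, Gpx5, Gpx6, Gsta1, Gsta2, Gstm3, Gstp3, Gstt4, Txndc8, Txndc16, Txndc17 and Txnl1, of which Gpx2 and Gstp3 were detected in 3 mice each, Gpx6 in 1 and the others in 0. Txndc17 lies beside Slc13a5 on chromosome 11, with 2 protein-coding genes between them in the RefSeq annotation. Neither of its 2 probes was detected in any mouse. Within 2 Mb of Slc13a5, 44 of 168 annotated genes were detected, 22 of them higher and 22 lower in mean in mINDY-KO adrenals, from -0.21 to 0.19 on the log2 scale. In limma 0 of the 44 passed the adjusted p. At an unadjusted p under 0.05, 2 were higher and 2 lower, against 4.33% and 7.01% of all detected genes.

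Of the detected members, 13 had several detected probes. In 5 of these all probes had the same sign of fold change, and in 8 (Gpx4, Gpx8, Gstm1, Gstm6, Gstp1, Prdx1, Txnl4a and Txnrd2) the signs differed. For Prdx1 the brighter probe gave 0.067 and the dimmer one -0.11, and for Gstm1 the values were -0.13 and 0.16. The dimmer probes had mean signals of only 217.8 for Prdx1 and 238.8 for Gstm1, against 18691.1 and 7358.9 for the brighter ones. The probes of the other sign for Gpx4 (214.1), Gstm6 (231.6) and Gstp1 (173.1) were as dim, near the array medians of 122 to 238. Those of Gpx8, Txnl4a and Txnrd2 were brighter (3991.7, 1100.4 and 2013). Among the 3 Prdx2 probes, 1 gave 0.20 at an unadjusted p under 0.05, with 2.07 to 2.40 in mINDY-KO and 1.96 to 2.09 in WT mice, and on it replicates 2 and 3 of mINDY-KO were the highest.

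**Figure D3:**
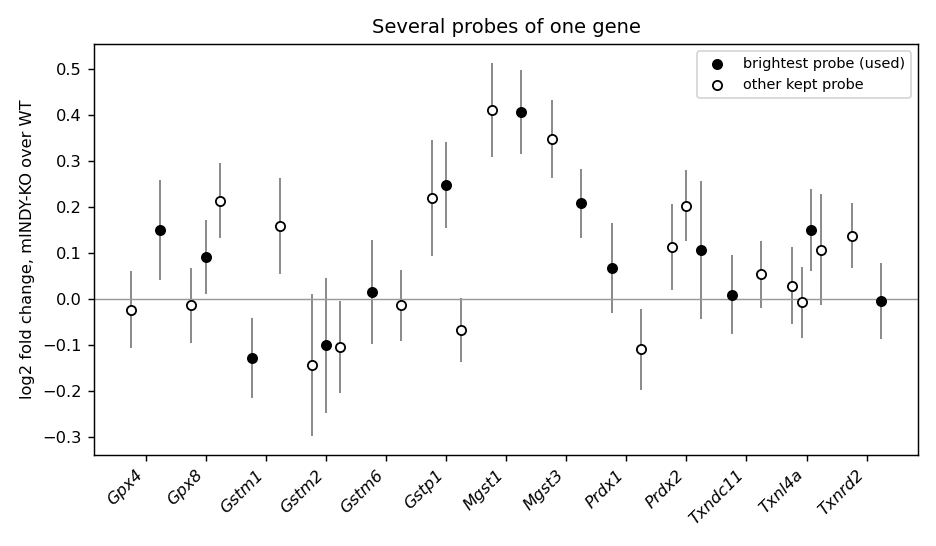
Log2 fold change, mINDY-KO over WT adrenals, of each detected probe of the 13 members with several (x axis), with the limma standard error as lines; filled points are the brightest probe, the one used elsewhere. Both probes of Mgst1 (0.41 each) and of Mgst3 (0.21 and 0.35) lie above 0, while the probes of 8 genes lie on both sides of it. For Gpx4, Gstm1, Gstm6, Gstp1 and Prdx1 the probe of the other sign has a low signal.

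Part of these values rested on mINDY-KO replicates 3 and 4, the arrays of lowest median signal. Without these 2 mice, 3 members (Mgst1, Txn1 and Txndc2) were higher and 6 (Gpx3, Gsta4, Gstm1, Gstm2, Prdx2 and Txnip) lower at an unadjusted p under 0.05, against 6.06% and 5.28% of all detected genes, and 6 members changed sign. Quantile normalization and neqc each gave 7 higher and 3 lower members, losing Gpx1 and Gsto1 among the higher and gaining Gstm1 and Txndc5 among the lower. Of all detected genes, 5.65% were then higher and 6.31% lower with quantile normalization, and 5% and 5.72% with neqc. The deposited Z scores gave 9 higher and 1 lower members, against 4.32% and 7.07% of all detected genes. Mgst1, Txn1, Txndc2 and Gpx3 had an unadjusted p under 0.05 in the same direction in all 23 alternatives run.

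**Figure D4:**
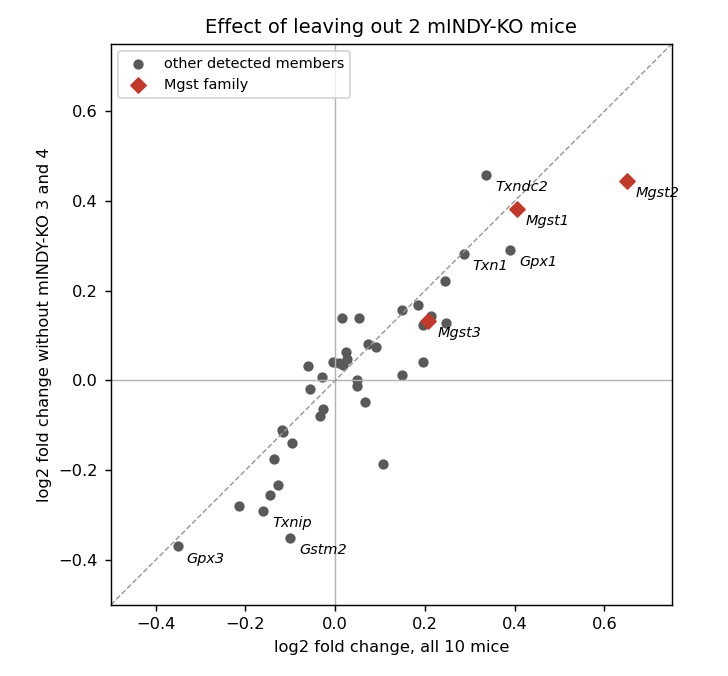
Log2 fold change of the 42 detected members, mINDY-KO over WT adrenals, with all 10 mice (x axis) and without mINDY-KO replicates 3 and 4 (y axis), with the line of equality dashed and the Mgst genes as red diamonds. Mgst1, Txn1 and Gpx3 lie near the line, Mgst2 (0.65 and 0.44) and Gstm2 (-0.10 and -0.35) lie below it.

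The other genes of these pathways were taken from lists, none of whose genes passed the adjusted p in limma. For all detected genes the shares were 43.6% with a higher mean, and 4.33% higher and 7.01% lower at an unadjusted p under 0.05. Every mINDY-KO mouse lay above every WT mouse for 0.753% and below for 1.38%. These shares are the background for the counts of every list below. Of 13 detected genes of glutathione synthesis, uptake and breakdown (18 listed), 4 had a higher and 9 a lower mean, and at an unadjusted p under 0.05 there were 0 higher and 1 lower, the dipeptidase Dpep1 (-0.20, SE 0.084). Gclm, the modifier subunit of glutamate-cysteine ligase, gave -0.044 (SE 0.069), and the catalytic subunit Gclc was detected in only 3 mice. Of 18 detected genes tied to glutathione use but outside the rule (22 listed, not all of them enzymes), 11 had a higher and 7 a lower mean. At an unadjusted p under 0.05, 3 were higher and 0 lower. These were Esd, Adh5 and Glrx5, while glutathione reductase (Gsr) had no probe under its symbol. Esd, which releases glutathione from formylglutathione, had 2.87, 2.88, 2.72, 2.77 and 2.87 in mINDY-KO and 2.55, 2.32, 2.18, 2.54 and 2.66 in WT mice, with no overlap (0.37, SE 0.090, adjusted p = 0.167). Adh5, the enzyme before it in formaldehyde removal, gave 0.28 (SE 0.11, adjusted p = 0.380), and the mitochondrial glutaredoxin Glrx5 gave 0.26 (SE 0.085, adjusted p = 0.297).

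Among 11 detected genes of NADPH supply (16 listed), 8 had a higher and 3 a lower mean. Taldo1 (0.37, SE 0.12, adjusted p = 0.309) and Pgls (0.21, SE 0.079, adjusted p = 0.354), both of the pentose phosphate pathway, were higher at an unadjusted p under 0.05. Of the same pathway, Tkt gave 0.055 (SE 0.12), and G6pdx and Pgd had no probe under these symbols. Mthfd2, of mitochondrial folate metabolism, had 0.0057, -0.19, -0.023, -0.015 and -0.12 in mINDY-KO and 0.59, 0.54, 0.036, 0.12 and 0.21 in WT mice. Every mINDY-KO mouse was below every WT mouse, though by little for WT replicate 3 (-0.37, SE 0.11, adjusted p = 0.231). Nnt, the transhydrogenase of the inner mitochondrial membrane, was detected in 0 mice of either genotype. The 14 detected thioredoxin partners and targets (18 listed) had 8 higher and 6 lower means, with 1 in each direction at an unadjusted p under 0.05, nucleoredoxin (Nxn, 0.20, SE 0.085) and the ribonucleotide reductase subunit Rrm1 (-0.18, SE 0.076). The 8 detected other genes of hydrogen peroxide and superoxide (13 listed, not all of them enzymes) had 5 higher and 3 lower means and 0 at an unadjusted p under 0.05. Catalase (Cat) was at 0.23 (SE 0.11) and the mitochondrial superoxide dismutase Sod2 at 0.086 (SE 0.088).

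The genes of the NFE2L2 pathway, which is known to act on many such genes through the antioxidant response element, had 7 higher and 6 lower means among 13 detected (16 listed). Nfe2l2 itself gave -0.095 (SE 0.12) and its target Nqo1 0.055 (SE 0.074). Bach1, a repressor that binds the same element, was the only one at an unadjusted p under 0.05, with -0.18, -0.29, -0.52, -0.37 and -0.36 in mINDY-KO and 0.37, 0.29, -0.031, -0.24 and -0.13 in WT mice, 1 mINDY-KO mouse lying within the WT range (-0.39, SE 0.11, adjusted p = 0.234). Of 6 detected genes of selenoprotein synthesis and the selenium carrier Selenop (11 symbols listed, 2 of them for Selenop), 2 had a higher and 4 a lower mean. Sephs2, which makes the selenium donor, gave 0.22 (SE 0.10) and had an unadjusted p under 0.05, and Selenop gave -0.18 (SE 0.085).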

How the data were processed

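Adrenal RNA of 5 mINDY-KO and 5 WT mice was measured on 11 one-colour Illumina bead arrays, grouped by the sample labels. The labels name the mice as biological repeats. Array slides and scan dates were not given in the sources used here. The authors deposited a linear signal intensity for each probe with its detection p-value, as exported from GenomeStudio (2011.1 in the submitters' processing notes) without normalization, and a deposited Z score of each probe, which equals the log10 signal minus the array mean over the array SD to within 0.0102. The columns left unused numbered 0. The number of arrays limits the precision.

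Z scores were recomputed from the signals and put on a log2 scale by the factor 1.57, the mean array SD of log2 signal. Both arrays of WT replicate 1 were averaged. Probes with a detection p under 0.05 in at least 5 of 10 mice were kept (13341 of 25697). Gene symbols came from the platform annotation, which gave 1 symbol to 23978 probes, several to 0 and none to 1719. For a gene with several kept probes the brightest was used. Genotypes were compared with lmFit and eBayes of limma 3.58.1 under R 4.3.3 (two-sided tests, Benjamini-Hochberg over all kept probes), which was tested on simulated data first. Limma took the place of the ANOVA of the supplement, whose thresholds (Z ratio 1.5, p 0.05, false discovery rate 0.3) were run as an alternative.

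Named in full are the 12 detected members of smallest limma p, the brightest of each family, and Txndc17; other members are given in brief, and the values of a few further genes were chosen after they were seen. The members, lists and tests were chosen with earlier results of these data known. The alternatives were quantile normalization, neqc, the deposited Z scores, other detection filters, either array of WT replicate 1 alone or both as samples, a replicate block, array weights, an intensity trend, averaged probes, and left-out mice. Promoter windows are RefSeq's (GRCm38.p6). Figures were drawn with matplotlib 3.10.9.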

Additional observations from a re-analysis of the deposited data

Results flagged for a closer look

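Among 46 groups of 5 mice tested for a single mouse apart from the rest of its group (gap over range above 0.71), 3 were marked, which is close to the number that chance alone marks. Txndc2 in mINDY-KO replicate 5 stood at 0.53, against -0.20 to -0.039 in the other mINDY-KO mice. Gsto1 in mINDY-KO replicate 3 stood at 3.52, against 3.18 to 3.22 in the other mINDY-KO mice. Txndc15 in WT replicate 4 stood at 4.24, against 4.40 to 4.43 in the other WT mice. The cause of these values was not tested.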

How the results depend on the processing

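Of the 23 alternatives to each named fold change, all kept the direction of Mgst1 (0.33 to 0.45, adjusted p 0.0926 to 0.392), Gpx3 (-0.42 to -0.29, adjusted p 0.0913 to 0.460), Txn1 (0.24 to 0.37), Txndc2 (0.21 to 0.65), Mgst2 (0.41 to 0.80) and Mgst3 (0.13 to 0.28). Members past the adjusted p numbered 0 in every limma alternative and 1 by the methods' thresholds, and members at an unadjusted p under 0.05 numbered 7 to 13 against 10. Over all kept probes, of which 2 passed, the number was 0 with neqc, 1 with the deposited Z scores, 0 without the detection filter, 6 with an intensity trend, 8 with both arrays of WT replicate 1 as 2 samples (a setting chosen after seeing the data), 1 with the replicate block, 0 without mINDY-KO replicates 3 and 4, 111 by the methods' thresholds and 0 to 14 without each mouse in turn. The replicate numbers did not pair the mice: same-numbered mice had correlated deviations of -0.30 to -0.11, 0 of 5 mINDY-KO mice correlated best with the WT mouse of their number, and the replicate block changed no call of a member. Signs turned for members near 0. Gstm2 (-0.10) spanned -0.25 to 0.012 without each mouse in turn, and Gstz1 (0.017) spanned -0.0063 to 0.046. Prdx1 (0.067) gave -0.022 with probes averaged, -0.049 without mINDY-KO replicates 3 and 4 and -0.017 to 0.14 without each mouse. Txn2 (0.048) gave -0.013 without mINDY-KO replicates 3 and 4 and -0.014 to 0.090 without each mouse. Txnrd2 (-0.0055) gave 0.020 with array weights, 0.066 with probes averaged, 0.042 without mINDY-KO replicates 3 and 4 and -0.056 to 0.033 without each mouse. The cause was not tested. Keeping both arrays of WT replicate 1 with the mouse as a random block could not be fitted, since 1 mouse alone has 2 arrays. The lowest signals, among them Gsto2, Gstp2, Txndc9 and Txnrd1, lie near the detection limit.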
